A study of Homo sapiens with 8 samples.

Results

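The genes described here encode the structural parts of the centromere and kinetochore. They are 38 genes named by symbol, from the histone variant CENPA to the microtubule-binding complexes, and their rows were found by matching Ensembl identifiers to GENCODE 29, in 38 of the 66206 rows of each deposited table. The rule that picks them uses symbols and no measured value, though earlier results of these data were known when the list was drawn up. The RNA came from A549, an established human lung adenocarcinoma line, and was sequenced in 4 groups of 2 libraries. The LY6K-AS knockdown cells received 25 pmol of an LNA gapmer, an antisense oligonucleotide with locked nucleic acids that directs RNase H to its target, here the long non-coding RNA LY6K-AS. Their controls received 25 pmol of a scramble LNA gapmer. The YWHAG knockdown cells received 40 pmol of siRNA against YWHAG, which encodes the 14-3-3 gamma adaptor protein, and their controls 40 pmol of a scramble siRNA. All cells were of the same line and were transfected with the same lipid reagent. Titles number the LY6K-AS knockdowns LNA1 and LNA3 and the YWHAG knockdowns si1 and si2. Whether these are separate oligonucleotides is not settled by the labels, and they are called library 1 and library 2 of each knockdown. Nothing in the labels ties the libraries of a group to different cultures. Each p-value therefore reflects only how far these libraries spread, which may be technical.

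The centromere is the chromosome region marked by nucleosomes that hold CENP-A in place of histone H3, and HJURP with the Mis18 proteins places new CENP-A there after each division. On this chromatin sits the constitutive centromere-associated network (CCAN), the inner kinetochore, which carries the outer KMN network of the Knl1, Mis12 and Ndc80 complexes. Ndc80 and, in vertebrates, the Ska complex hold spindle microtubules. The Rod-Zw10-Zwilch complex and Spindly recruit dynein, CENP-E and CENP-F belong to the fibrous corona, and the shugoshins protect cohesin at the inner centromere. Many of these genes are transcribed mainly in G2 and mitosis, through a promoter element called the cell cycle genes homology region (CHR), often beside CCAAT boxes.

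The promoters of 3 members are shown because they hold both elements and, among such members, had the lowest fitted change after LY6K-AS knockdown. RefSeq promoter windows of 300 bases in GRCh38.p14, 250 before and 50 after the annotated start, were at hand for 32 of the 38 genes. CENPF lies on chromosome 1, from 214603195 to 214664588 on the plus strand in GENCODE 29, and the stretch printed is chr1:214603086-214603214, with 109 bases before its start. SPC25 lies on chromosome 2 from 168834132 to 168913371 on the minus strand, and the stretch printed is chr2:168890413-168890562, with 132 bases before the RefSeq start. CENPA lies on chromosome 2 from 26764289 to 26801067 on the plus strand, and the stretch printed is chr2:26785909-26786058, with 147 bases before the RefSeq start. The RefSeq starts of SPC25 and CENPA lie inside the GENCODE spans of these genes. Each is printed on the strand of its gene, and capitals mark a CCAAT box, read as CCAAT or on the other strand as ATTGG, and the CHR word TTTGAA.
CENPF: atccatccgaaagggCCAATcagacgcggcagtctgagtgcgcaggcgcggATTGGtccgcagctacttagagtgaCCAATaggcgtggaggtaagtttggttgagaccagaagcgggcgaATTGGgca
SPC25: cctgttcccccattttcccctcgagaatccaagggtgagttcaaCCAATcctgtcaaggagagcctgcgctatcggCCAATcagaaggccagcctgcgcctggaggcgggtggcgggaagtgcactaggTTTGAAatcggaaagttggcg
CENPA: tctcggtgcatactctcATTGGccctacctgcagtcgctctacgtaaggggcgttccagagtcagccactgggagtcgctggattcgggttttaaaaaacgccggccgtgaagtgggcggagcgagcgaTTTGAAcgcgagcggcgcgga

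The CHR word began 3 bases before the start in SPC25 and 18 bases before it in CENPA. In CENPF it began 40 bases after the start, past the end of the stretch printed. A CHR word, searched as TTTGAA or TTCGAA on both strands, stood in 17 of the 32 member windows (53.1%), against 16.6% of 27305 RefSeq promoters. Within 50 bases of the start it stood in 14 member windows (43.8%), against 5.05% of all. A CCAAT box, searched on both strands, stood in 21 (65.6%), against 35.7% of all, and both elements in 12 (37.5%), against 6.58%. The E2F words TTTCGCGC, TTTGGCGC, TTTCCCGC and TTTGCCGC, searched on both strands, were found in 4 member windows (12.5%), against 3.33% of all. No word of 1 of these sets contains a word of another. A match is a description of letters and not a measured binding site.

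Read totals implied by the smallest steps in the RPKM values were 26.2 and 30.9 M in the LY6K-AS knockdown libraries, 34.0 and 30.5 M in the scramble LNA libraries, 34.6 and 33.7 M in the YWHAG knockdown libraries and 34.5 M in each scramble siRNA library. The LNA table had been divided by the genomic length of each gene and the siRNA table by merged exon length, so LNA values were brought to the scale of the siRNA table, per kilobase of merged exons. No source used here says if LNA reads in introns were counted. YWHAG stood at 13.5 and 4.91 RPKM in the YWHAG knockdown libraries, against 163 and 158 RPKM in the scramble siRNA libraries, a ratio of pooled reads of 0.0579 (95% exact binomial interval 0.0555 to 0.0603). LNCOC1, the GENCODE gene antisense to LY6K, had 11 reads in both LY6K-AS knockdown libraries together, against 51 in both scramble LNA libraries, a ratio of 0.244 (interval 0.115 to 0.474). LY6K, like LNCOC1 too low to be tested, had 108 reads in these knockdown libraries, against 77 in their controls, a ratio of 1.59 (interval 1.17 to 2.15). These intervals cover counting error only. Lung epithelial markers summed to 707 to 1008 RPKM in the LY6K-AS knockdown libraries and 614 to 629.6 in the scramble LNA libraries, and to 901 to 1031 RPKM in the YWHAG knockdown libraries and 731 to 814 in the scramble siRNA libraries. Of these markers NKX2-1, SFTPB and SFTPC were near 0 in all libraries, and KRT8 and KRT18 made up most of each sum. Of the 8 tested, 6 had a higher fitted value and 2 a lower one in each knockdown. The lower ones were EPCAM and CDH1 after LY6K-AS knockdown and EPCAM and FOXA1 after YWHAG knockdown. Immune, fibroblast and endothelial marker sums were at most 9.62 RPKM in any library, with CD3E and DCN at or near 0. CD14, of the immune list, and COL1A1, of the fibroblast list, were detected in every library. CD14 stood at 0.566 to 3.26 RPKM and COL1A1 at 0.709 to 9.41 RPKM.

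In the control cells the members spread over a wide range of levels. HJURP, the CENP-A chaperone, was highest in both controls, with means of 57.2 RPKM in the scramble LNA libraries and 60.6 RPKM in the scramble siRNA libraries. ZWINT, the partner of KNL1, came next with 52.4 and 40.9 RPKM in these controls. CENPW, SKA2, CENPF and SPDL1 followed in the scramble LNA cells at 21.0 to 22.1 RPKM, and neighbours in that order did not differ beyond the spread of the 2 controls. The median member stood at 8.60 RPKM in scramble LNA cells and 8.23 RPKM in scramble siRNA cells. SKA1 (0.463 RPKM), CENPP (0.937 RPKM) and CENPC (0.940 RPKM) were lowest in the scramble LNA libraries. The 2 sets of control levels, which come from separately normalized tables, had a Spearman rho of 0.764 over the 38 genes. In single libraries the member with fewest reads had from 18 reads (SKA1, LY6K-AS knockdown library 2) to 231 reads, so all members were detected.

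**Figure D1:**
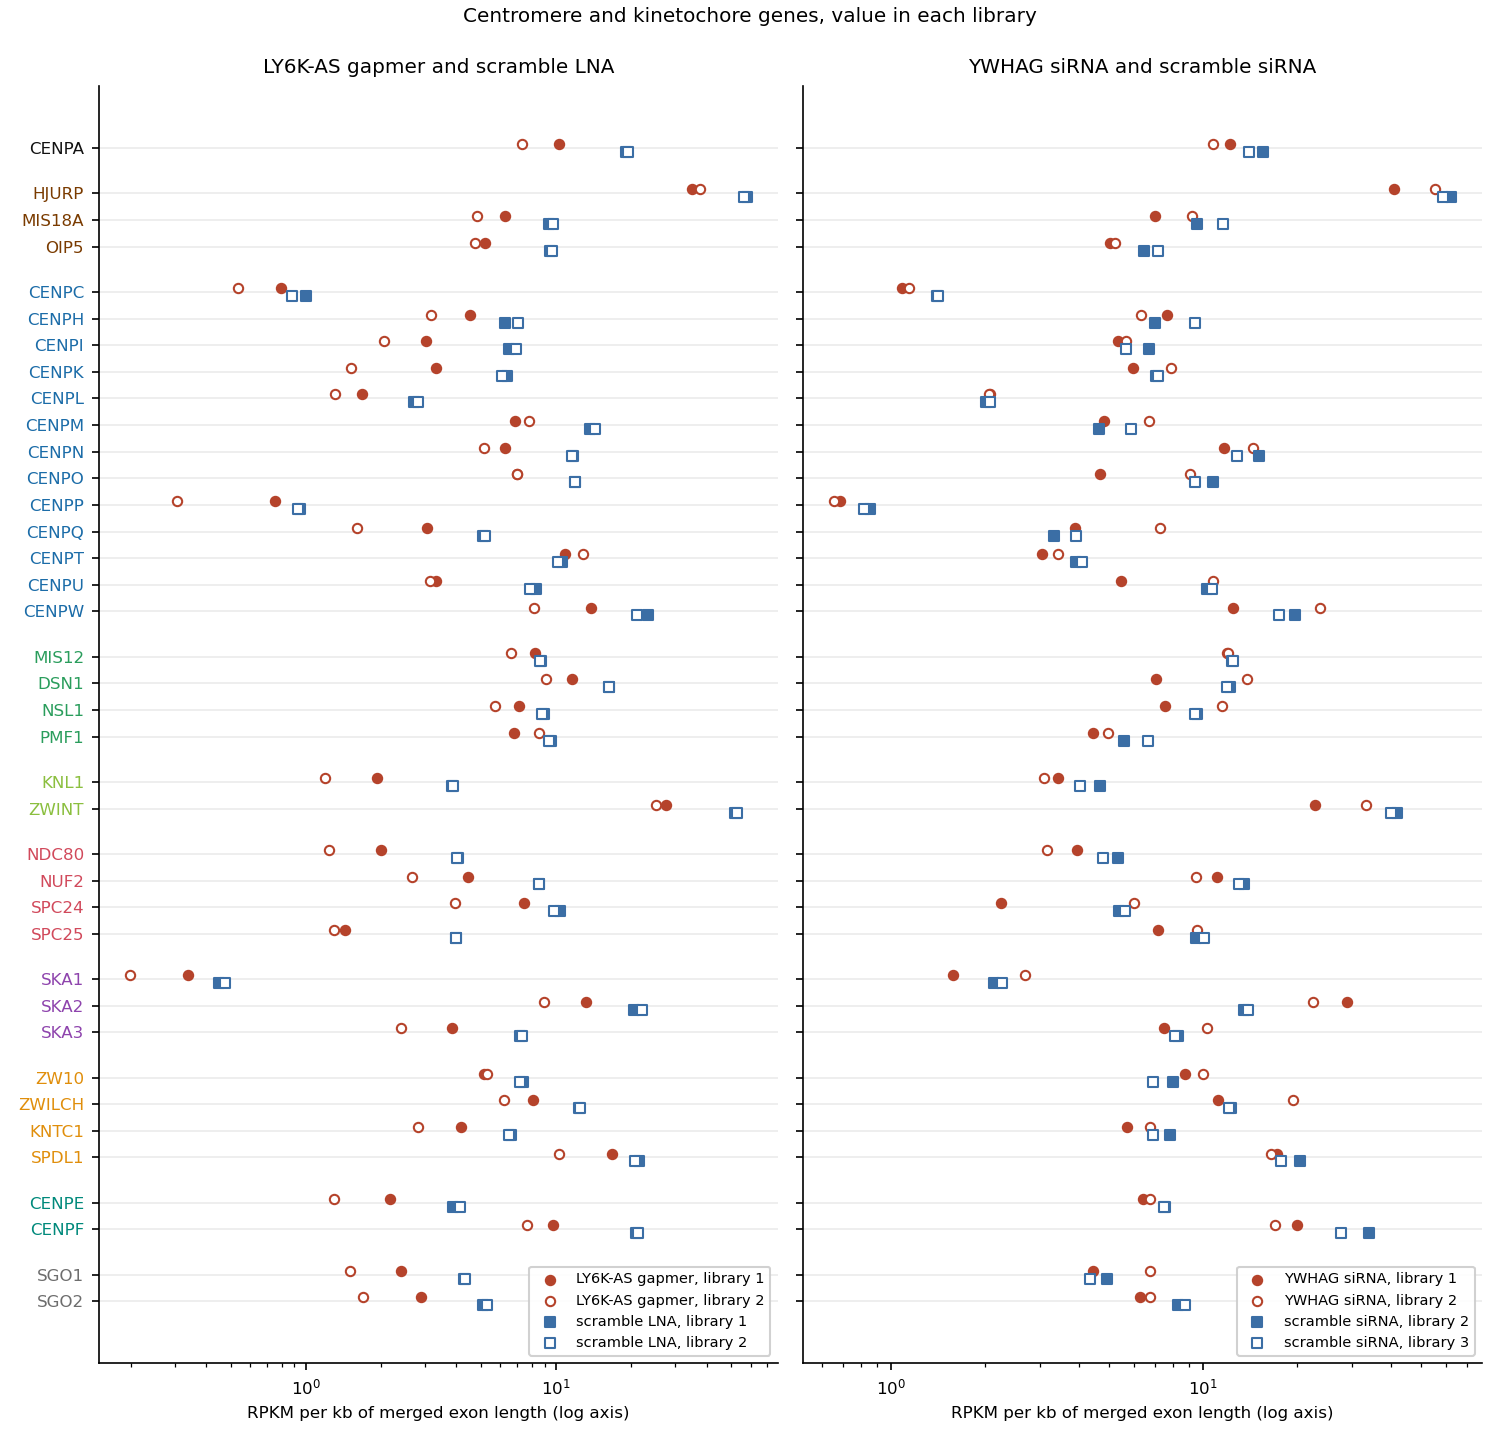
RPKM, per kilobase of merged exons (log axis), of each of the 38 genes in every library, LY6K-AS knockdown and scramble LNA on the left, YWHAG knockdown and scramble siRNA on the right, with names coloured by subcomplex. On the left nearly all knockdown points lie below both controls; on the right the groups overlap for 16 genes.

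After LY6K-AS knockdown nearly the whole set was lower. Of the 37 members that passed a filter of at least 0.5 RPKM in at least 2 libraries, 36 had a lower fitted value and 1 a higher one, whereas of all 14662 genes tested 49.7% were lower and 50.3% higher. Both knockdown libraries lay below both scramble LNA libraries for the same number, 36 members, where 30.5% of all genes did. The median change was −0.85 on the log2(RPKM + 1) scale, against 0.00 over all genes tested, with members from −1.19 (CENPF) to 0.18 (CENPT). Expressed as levels, the median member stood at 52.2% of its control mean. No member passed limma's test at a Benjamini-Hochberg adjusted p under 0.05, and neither did any gene of the table (0.00%), with members' adjusted p between 0.103 and 0.369. At an unadjusted p under 0.05, limma placed 32 members lower and 0 higher, against 11.7% of all genes lower and 13.6% higher. With the spread pooled over all 8 libraries limma called OIP5, CENPI, SPC25 and CENPF (adjusted p = 0.0451 each), among 64 of 12861 genes called. On the values as deposited the median of the 28 members passing the filter was −0.399. Those values are divided by genomic length and so are lower, and the log2(RPKM + 1) scale understates changes of low genes. Rescaling to merged exons leaves each gene's ratio to its control unchanged. With 0.1 added to the rescaled values in place of 1 the members' median was −0.93, and with limma voom on recovered reads −1.025. Because RNA came from whole cultures, fewer cells in G2 and mitosis and less of these RNAs per cell cannot be told apart. The 7 proliferation markers listed beside them, such as MKI67, TOP2A and CDK1, were all lower too, with a median of −1.11, and their part in the result was not tested.

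At the centromeric nucleosome, CENPA, the histone H3 variant itself, stood at 10.2 and 7.30 RPKM in the LY6K-AS knockdown libraries, against 19.0 and 19.3 RPKM in the scramble LNA libraries. Its mean was 8.77 ± 2.09 RPKM in knockdown cells and 19.2 ± 0.254 RPKM in control cells (SD, n = 2 each), a change of −1.06 ± 0.17 (SE; limma adjusted p = 0.103). The groups did not overlap and library 2 was the lower. The 3 genes that load CENP-A were all below both controls, with a median of −0.70. HJURP had 34.9 and 37.6 RPKM in knockdown libraries, against 57.9 and 56.5 RPKM in controls. OIP5, also called MIS18B, had 5.22 and 4.74 RPKM, against 9.48 and 9.61 RPKM, a change of −0.82 ± 0.09 (limma adjusted p = 0.103). For MIS18A, its partner in the Mis18 complex, the values were 6.23 and 4.85 RPKM in knockdown libraries and 9.35 and 9.73 RPKM in controls. The 3 loading genes stood at 52.2% (OIP5) to 63.3% (HJURP) of control. OIP5 shares 38.03% of its exon length with OIP5-AS1 on the other strand, and as nothing states whether counting used strand, reads of such pairs cannot be told apart.

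In the inner kinetochore 12 of the 13 CCAN members were below both controls, with a median of −0.85 over all 13. CENP-H, I, K and M, which form 1 subcomplex, had a median of −0.995. CENPI had 3.01 and 2.06 RPKM in LY6K-AS knockdown libraries, against 6.51 and 6.92 RPKM in scramble LNA libraries, a change of −1.14 ± 0.16 (limma adjusted p = 0.103). CENPK, with 3.31 and 1.51 RPKM against 6.38 and 6.10 RPKM, had the same fitted change with a wider error (−1.14 ± 0.28, limma adjusted p = 0.128). Of the CENP-O, P, Q and U subcomplex, which docks polo-like kinase 1, CENPU had the smallest p of all members. CENPU stood at 3.31 and 3.15 RPKM in knockdown libraries and 8.33 and 7.90 RPKM in controls, a change of −1.11 ± 0.09 (limma unadjusted p = 0.000176, adjusted p = 0.103). The 2 knockdown libraries of CENPU nearly coincided. CENPQ, its partner, was more spread, at 3.04 and 1.61 RPKM in knockdown libraries against 5.13 and 5.19 RPKM in controls. CENP-L and CENP-N, the pair in which CENP-N reads the CENP-A nucleosome, had a median of −0.76. CENPC, the scaffold that joins CENP-A chromatin to the Mis12 complex, was among the members nearest 0, with 0.794 and 0.534 RPKM in knockdown libraries and 1.00 and 0.878 RPKM in controls. On the log2(RPKM + 1) scale, which understates changes of low genes, CENPC came to −0.23 ± 0.13 (limma adjusted p = 0.326), and pooled reads gave a ratio of 0.693 (interval 0.601 to 0.797). CENPP, another low gene, came to −0.36, with a ratio of pooled reads of 0.544 (interval 0.471 to 0.628). CENPP shares 37.97% of its exon length with IPPK, and CENPO 27.0% with ADCY3, both on the other strand.

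CENPT was the 1 member with a higher fitted value, except with the GC trend of this comparison removed. CENP-T binds DNA in a histone-fold unit with CENP-W and carries Ndc80 complexes on its long arm. Its RNA stood at 10.9 and 12.9 RPKM in the LY6K-AS knockdown libraries, against 10.5 and 10.2 RPKM in the scramble LNA libraries, a change of 0.18 ± 0.11 (limma adjusted p = 0.369). Both knockdown libraries lay above both controls, but the nearer one exceeded them by less than the 2 knockdown libraries differed from each other. CENPT shares 10.8% of its exon length with TSNAXIP1, 6.86% with THAP11 and 1.99% with NUTF2, all on the other strand. CENPW, its histone-fold partner, stood at 13.7 and 8.19 RPKM in knockdown libraries and 23.3 and 21.0 RPKM in controls, a change of −0.99 ± 0.25 (limma adjusted p = 0.131). CENPT also had 59.0% GC in its longest transcript, against a mean of 43.2% over the members tested. High GC was not particular to CENPT, as CENPM, with 61.4%, lay below both controls (−0.85). Over all genes tested the change after LY6K-AS knockdown had a Spearman rho of 0.53 with the GC content of the longest transcript. Over the 37 members tested the rho was 0.39, and both are descriptions across genes. With that trend removed CENPT came to −0.04 and the members' median to −0.74, with all 37 lower. The part of GC content in these values was not tested further.

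**Figure D2:**
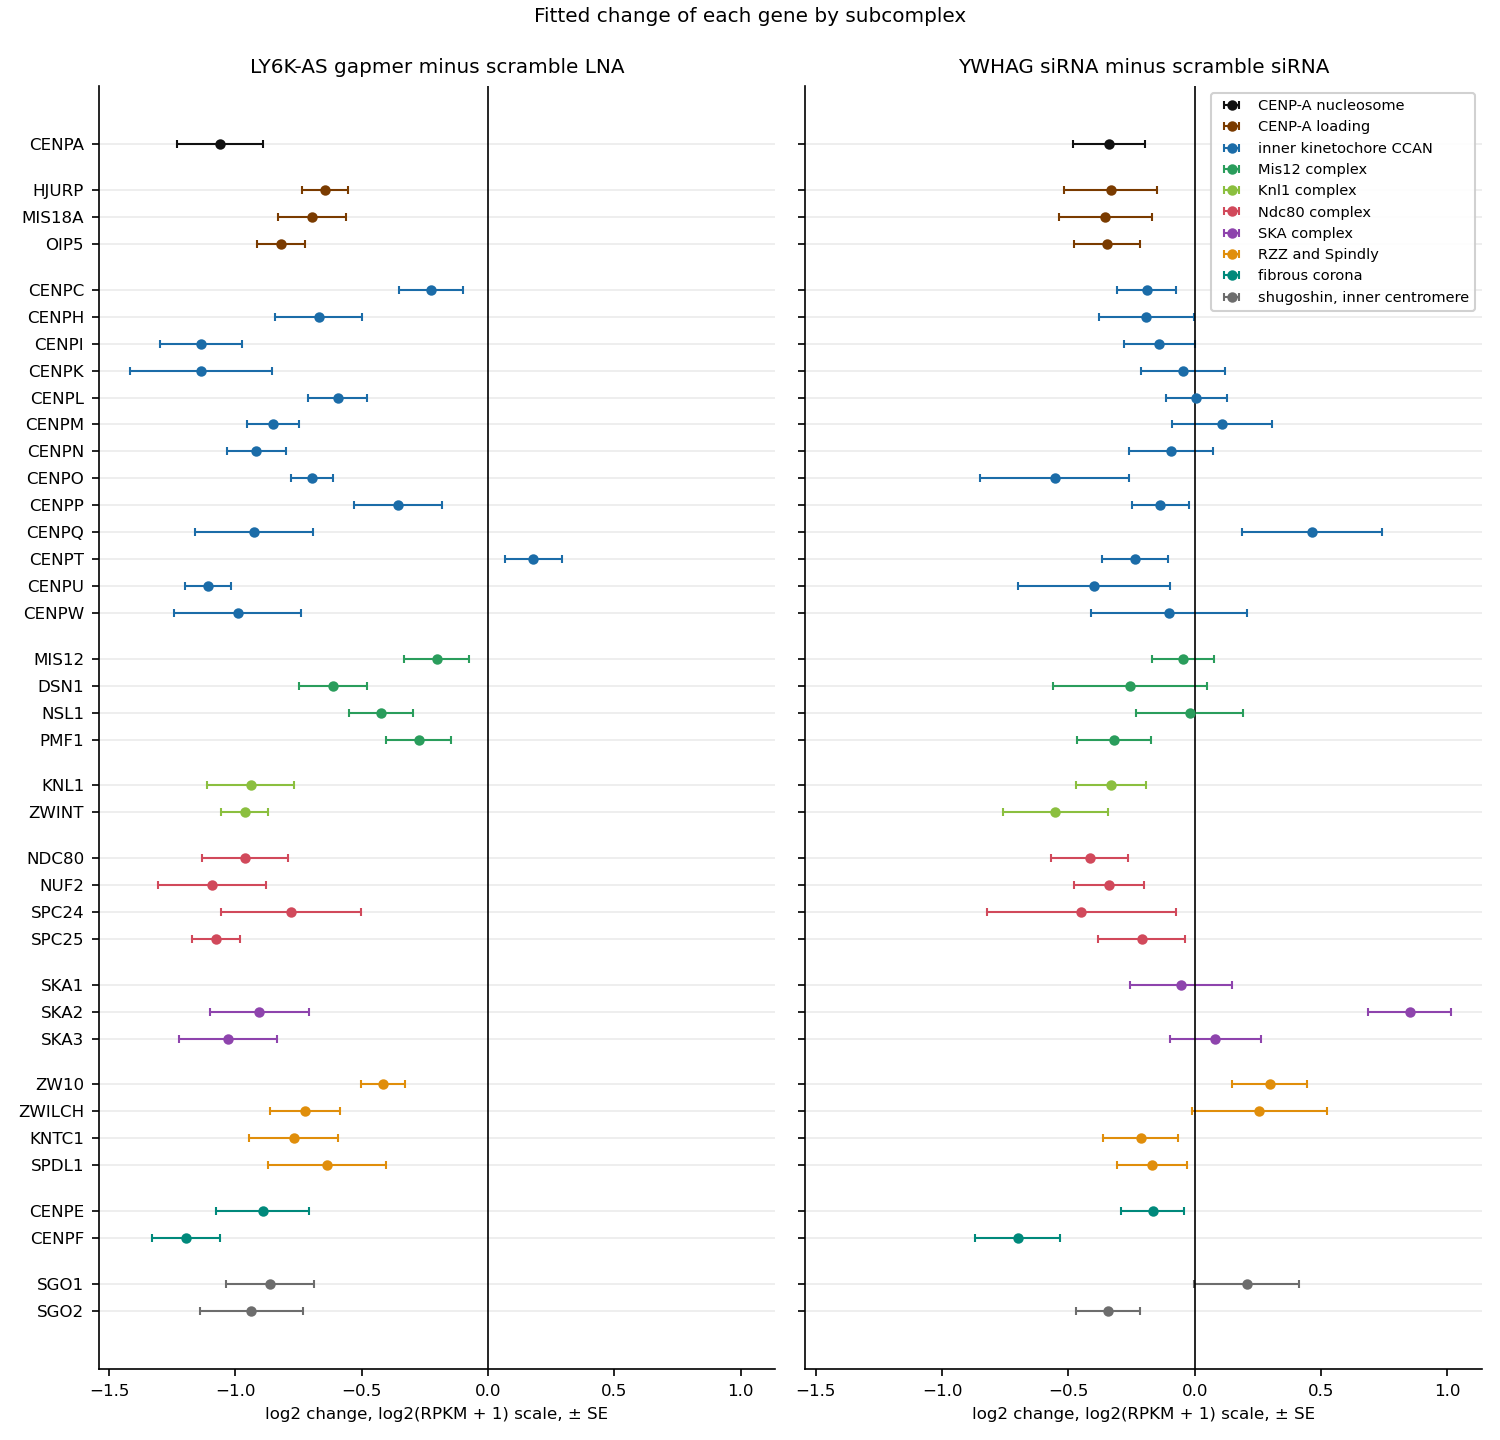
Fitted log2 change (log2(RPKM + 1) scale, bars ± SE from limma, n = 2 libraries per group) of each gene, knockdown minus control, coloured by subcomplex, with LY6K-AS knockdown on the left and YWHAG knockdown on the right. CENPT is the only point right of 0 on the left (it falls at −0.04 with the GC trend removed), and SKA2 stands farthest right on the right.

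Among the outer kinetochore genes all 10 KMN members were below both controls after LY6K-AS knockdown, with a median of −0.86, but the 3 complexes covered different ranges. The Ndc80 complex, the main microtubule coupler, had a median of −1.02. SPC25 stood at 1.43 and 1.30 RPKM in the LY6K-AS knockdown libraries, against 3.98 and 4.001 RPKM in the scramble LNA libraries. That was 34.2% of the control mean, the lowest level relative to control among the members, and a change of −1.08 ± 0.10 (limma adjusted p = 0.103). NUF2 had 4.45 and 2.66 RPKM, against 8.52 and 8.53 RPKM, and NDC80 had 2.01 and 1.24 RPKM, against 4.07 and 4.04 RPKM. SPC24, which pairs with SPC25, was the most spread of the 4, at 7.44 and 3.93 RPKM against 10.3 and 9.81 RPKM. Of the Knl1 complex, KNL1, the scaffold for checkpoint proteins, had 1.93 and 1.19 RPKM in knockdown libraries and 3.83 and 3.89 RPKM in controls. ZWINT had 27.6 and 25.2 RPKM, against 51.9 and 52.9 RPKM, a change of −0.96 ± 0.09 (limma adjusted p = 0.103).

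The Mis12 complex, which links the inner and outer layers, had the median nearest 0 of the subcomplexes, at −0.35. MIS12 stood at 8.26 and 6.61 RPKM in LY6K-AS knockdown libraries, against 8.67 RPKM in each scramble LNA library, a change of −0.20 ± 0.13 (limma adjusted p = 0.369). Library 1 was thus close to the controls for MIS12. PMF1, at 6.82 and 8.54 RPKM against 9.52 and 9.38 RPKM, came to −0.27 ± 0.13, and it shares 23.3% of its exon length with the PMF1-BGLAP readthrough gene on the same strand. NSL1 had 7.10 and 5.68 RPKM, against 8.93 and 8.80 RPKM. DSN1, the subunit that Aurora B phosphorylates, had the lowest change of the 4, at 11.6 and 9.13 RPKM in knockdown libraries and 16.3 RPKM in each control, or −0.62 ± 0.13 (limma adjusted p = 0.113). No test was run of a difference between the complexes, since genes of 1 set of libraries are not replicates.

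The microtubule- and motor-linked members were lower as well. SKA3, of the Ska complex, had 3.82 and 2.40 RPKM in LY6K-AS knockdown libraries, against 7.19 and 7.34 RPKM in scramble LNA libraries, a change of −1.03 ± 0.19 (limma adjusted p = 0.105). SKA2 had 13.2 and 8.98 RPKM, against 20.4 and 22.1 RPKM, a change of −0.90 ± 0.19 (limma adjusted p = 0.113). SKA1, too low for the filter, had 26 and 18 reads in knockdown libraries and 45 and 43 reads in controls, a depth-adjusted ratio of pooled reads of 0.565 (interval 0.384 to 0.821). All 3 Ska genes thus lay on the same side of their controls. In the Rod-Zw10-Zwilch and Spindly group the median was −0.68. ZWILCH had 8.06 and 6.22 RPKM in knockdown libraries, against 12.3 and 12.4 RPKM in controls, and KNTC1, which encodes Rod, 4.17 and 2.80 RPKM, against 6.62 and 6.50 RPKM. ZW10 had the value nearest its controls in this group, at 5.14 and 5.28 RPKM, against 7.39 and 7.20 RPKM, a change of −0.42 ± 0.09 (limma adjusted p = 0.111). SPDL1, which encodes the dynein adaptor Spindly, had 16.7 and 10.3 RPKM, against 21.4 and 20.6 RPKM.

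Of the corona genes, CENPF stood at 9.77 and 7.64 RPKM in LY6K-AS knockdown libraries, against 20.9 and 21.3 RPKM in scramble LNA libraries. Its change of −1.19 ± 0.14 (limma adjusted p = 0.103) was the lowest of all members. CENPE, the kinesin that carries chromosomes towards the spindle equator, had 2.16 and 1.30 RPKM, against 3.87 and 4.14 RPKM, or −0.89 ± 0.18 (limma adjusted p = 0.110). The shugoshins were close to each other. SGO1 had 2.39 and 1.51 RPKM in knockdown libraries, against 4.28 and 4.33 RPKM in controls (−0.86 ± 0.17, limma adjusted p = 0.110). For SGO2 the values were 2.90 and 1.70 RPKM in knockdown libraries and 5.11 and 5.31 RPKM in controls (−0.94 ± 0.20, limma adjusted p = 0.113). In each of these 4 genes library 2 was the lower knockdown library and both stood well under the controls.

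The members lay farther from their controls in 1 LY6K-AS knockdown library than in the other. The members' median was −0.65 in library 1 and −1.03 in library 2, each against the mean of its controls, with 36 of 37 members lower in each. Library 2 was below library 1 in 31 of 37 members, where 47.9% of all genes were, and by more than 0.5 in 9 members, where 7.84% of all genes were. It was above by as much in 0 members, where 7.83% of all genes were. The 2 scramble LNA libraries differed by a median of 0.00 over the members. Mitochondrially encoded genes took 8.37% of reads in knockdown library 1 and 4.12% in library 2, against 8.43% and 6.43% in the scramble LNA libraries. With these genes left out of the totals the members' median was −0.875, and the part of this share in the gap between the libraries was not tested. With 1 knockdown library left out, the controls alone set the spread. Without library 1 limma called 36 members and 7853 genes (55.3%) at an adjusted p under 0.05, and without library 2 it called 33 members and 4612 genes (32.4%). With either control left out it called 0 genes. Such fits assume that a lone library would spread as the controls do.

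**Figure D3:**
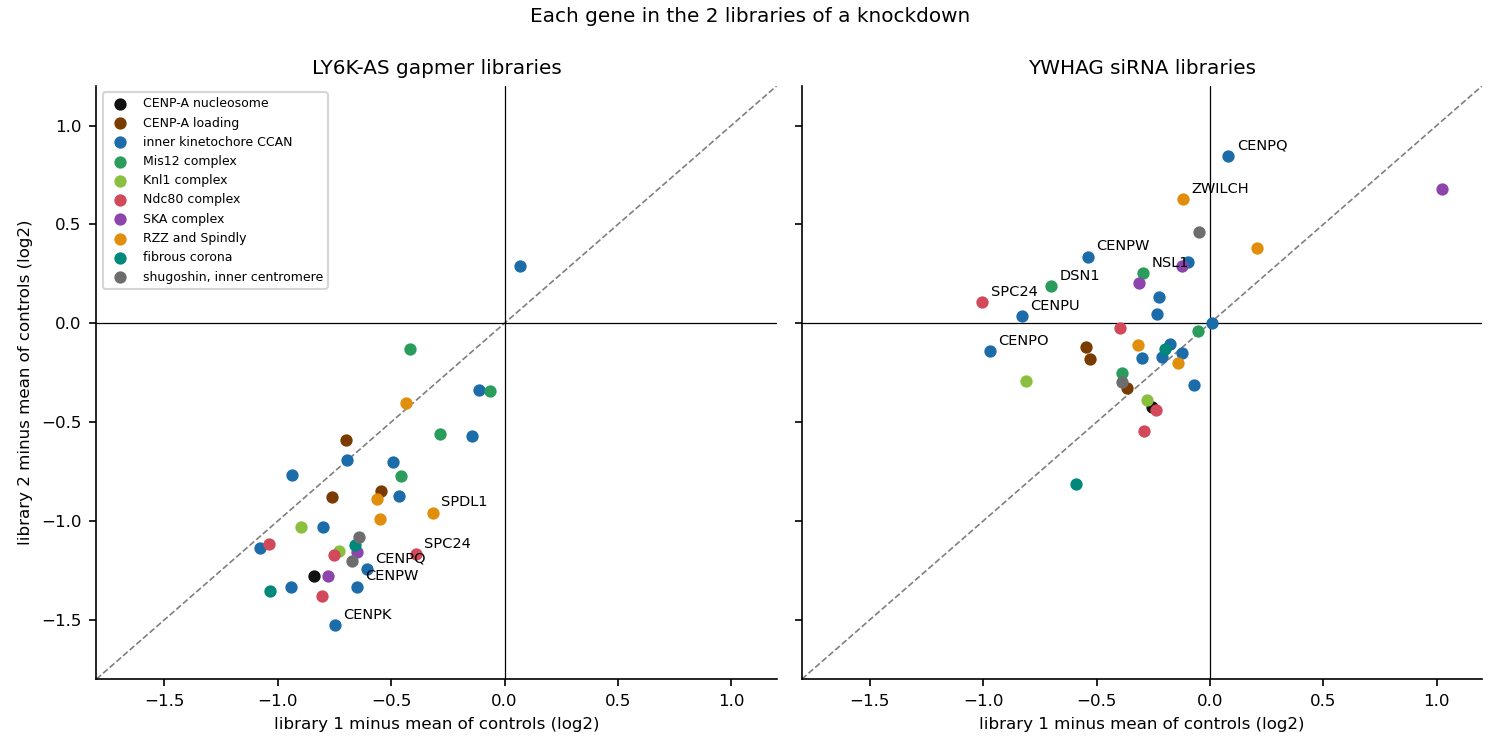
Log2 change of each gene in knockdown library 1 (horizontal) and library 2 (vertical), each minus the mean of its 2 controls on the log2(RPKM + 1) scale, LY6K-AS knockdown on the left and YWHAG knockdown on the right. On the left 31 of 37 genes lie lower in library 2 than in library 1; on the right 11 of 38 genes lie more than 0.5 higher in library 2.

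After YWHAG knockdown the members lay much closer to their controls. Of the 38, all of which passed the filter, 30 had a lower fitted value (27 under TMM scaling) and 8 a higher one, where of all 13903 genes tested 57.6% were lower and 42.4% higher. The median change was −0.19, against −0.05 over all genes, and the median member stood at 85.6% of its control mean. Both knockdown libraries lay below both scramble siRNA libraries for 20 members, where 30.8% of all genes did. Both lay above for 2 members, SKA2 and ZW10, where 20.4% of all genes did, and for the other 16 the groups overlapped. No member and no gene (0.00%) passed limma's adjusted test. Even YWHAG, the target, with a change of −4.12, did not pass (limma adjusted p = 0.130). At an unadjusted p under 0.05 limma placed 5 members lower, CENPF, NDC80, SGO2, ZWINT and OIP5, against 8.90% of all genes, and 1 higher, SKA2, against 7.51%. The 7 proliferation markers were all lower, with a median of −0.24, and their part in the result was not tested.

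CENPF was again the lowest, at 20.02 and 17.1 RPKM in the YWHAG knockdown libraries, against 34.0 and 27.7 RPKM in the scramble siRNA libraries. It stood at 60.1% of its control mean, a change of −0.70 ± 0.17 (limma adjusted p = 0.225). ZWINT had 22.9 and 33.3 RPKM in knockdown libraries, against 41.9 and 40.0 RPKM in controls, a change of −0.55 ± 0.21 (limma adjusted p = 0.297). NDC80 had 3.96 and 3.16 RPKM, against 5.34 and 4.80 RPKM, a change of −0.42 ± 0.15 (limma adjusted p = 0.293). SGO2 came to −0.34 ± 0.13, with 6.30 and 6.77 RPKM against 8.33 and 8.79 RPKM. Its paralogue SGO1 had 4.44 and 6.75 RPKM in knockdown libraries and 4.94 and 4.34 RPKM in controls, so the groups overlapped.

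CENPA stood at 12.2 and 10.7 RPKM in YWHAG knockdown libraries, against 15.5 and 14.0 RPKM in scramble siRNA libraries, a change of −0.34 ± 0.14 (limma adjusted p = 0.323). The 3 loading genes were all below both controls, with a median of −0.35, and OIP5 had 5.06 and 5.23 RPKM, against 6.45 and 7.18 RPKM. Of the 13 CCAN members 5 lay below both controls, near the 30.8% of all genes that did, 8 overlapped them, and the median was −0.14. CENPT, at 3.06 and 3.42 RPKM against 3.91 and 4.09 RPKM, was among those below (−0.24 ± 0.13, limma adjusted p = 0.417). CENPI, among the lowest after LY6K-AS knockdown, had 5.36 and 5.6866 RPKM in YWHAG knockdown libraries and 6.73 and 5.6877 RPKM in scramble siRNA libraries. By that narrow margin CENPI is counted among the 5, and among the 20 members below both controls. The 10 KMN members were all lower in the fit (under TMM scaling MIS12 and NSL1 were above 0), 6 of them below both controls, with a median of −0.33. PMF1 had the smallest p in the Mis12 complex, at 4.43 and 4.98 RPKM against 5.59 and 6.67 RPKM (−0.32 ± 0.15, limma adjusted p = 0.354).

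SKA2 was the member that stood highest after YWHAG knockdown. It had 28.9 and 22.6 RPKM in the YWHAG knockdown libraries, against 13.5 and 14.0 RPKM in the scramble siRNA libraries, or 25.7 ± 4.52 RPKM and 13.7 ± 0.323 RPKM (SD, n = 2 each). The groups did not overlap, and the change of 0.85 ± 0.17 had the smallest p of all members (limma unadjusted p = 0.00366, adjusted p = 0.193). The other Ska genes overlapped their controls: SKA3 had 7.49 and 10.3 RPKM against 8.35 and 8.17 RPKM, and SKA1 had 1.58 and 2.68 RPKM against 2.13 and 2.27 RPKM. ZW10 had 8.78 and 10.0 RPKM in knockdown libraries, against 8.04 and 6.92 RPKM in controls, a change of 0.30 ± 0.15 (limma adjusted p = 0.383). CENPQ, with 3.89 and 7.30 RPKM against 3.33 and 3.93 RPKM, had the second highest fitted change (0.46 ± 0.28, limma adjusted p = 0.454), from library 2.

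For a block of members the 2 YWHAG knockdown libraries stood apart. Library 2 was above library 1 by more than 0.5 in 11 of 38 members, where 7.72% of all genes were, and below it by as much in 0, where 11.0% of all genes were. SPC24 had 2.25 and 6.02 RPKM in libraries 1 and 2, against 5.40 and 5.64 RPKM in the scramble siRNA libraries. CENPU had 5.47 and 10.8 RPKM, against 10.3 and 10.7 RPKM, and CENPO had 4.67 and 9.07 RPKM, against 10.8 and 9.43 RPKM. In log2 terms these were −1.004 (SPC24), −0.83 (CENPU) and −0.97 (CENPO) in library 1, while library 2 stood at 0.11, 0.04 and −0.14. DSN1 (7.06 and 13.9 RPKM, against 12.2 and 11.9 RPKM) and CENPW (12.5 and 23.7 RPKM, against 19.7 and 17.6 RPKM) had libraries on either side of the controls. The members' median was −0.27 in library 1, with 34 of 38 lower, and −0.11 in library 2, with 22 lower. Without library 2 limma placed 15 members lower at an unadjusted p under 0.05, where 19.8% of all genes were. In that fit it called 5 members and 718 genes at an adjusted p under 0.05, and 31 members lay below both controls, where 47.9% of all genes did. Without library 1 there were 7 members lower at an unadjusted p under 0.05 (18.5% over the table), 0 called and 21 below both controls (49.4%). Without scramble siRNA library 2 the count at an unadjusted p under 0.05 was 0 (1.37%) and without library 3 it was 1 (1.81%).

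Set side by side, the LY6K-AS values were lower than the YWHAG values for most members. Of the 37 genes tested in both tables, 28 were lower in both (of these CENPK, MIS12 and NSL1 stood above 0 after YWHAG knockdown under TMM scaling), 8 were lower after LY6K-AS knockdown and higher after YWHAG knockdown, and 35 had the lower change after LY6K-AS knockdown. The LY6K-AS effect minus the YWHAG effect had a median of −0.59, against 0.04 over all 12861 genes tested, of which 45.7% were below 0 and 54.3% above. Of the members 35 were below 0 and 2 above. On the values as deposited the median was −0.18 over the 28 members that passed, 22 of them below 0, and with limma voom on recovered reads it was −0.92. No member passed limma's adjusted test of that difference, where 0.179% of all genes did, and at an unadjusted p under 0.05 there were 18 members below 0, against 8.86% of all genes, and 1 above, CENPT. The lowest difference was that of SKA2 at −1.75 ± 0.27 (limma adjusted p = 0.0578), followed by CENPQ at −1.39 ± 0.40 (limma adjusted p = 0.130). CENPI came to −0.998 ± 0.22 (limma adjusted p = 0.0953), SPC25 to −0.87 ± 0.20 (limma adjusted p = 0.103) and CENPT to 0.42 ± 0.17 (limma adjusted p = 0.239). The knockdowns differ in oligonucleotide chemistry, dose and table as well as in target, and these cannot be told apart. Across the 37 members the 2 changes had a Pearson r of 0.086 and a Spearman rho of 0.20, given as a description across genes.

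**Figure D4:**
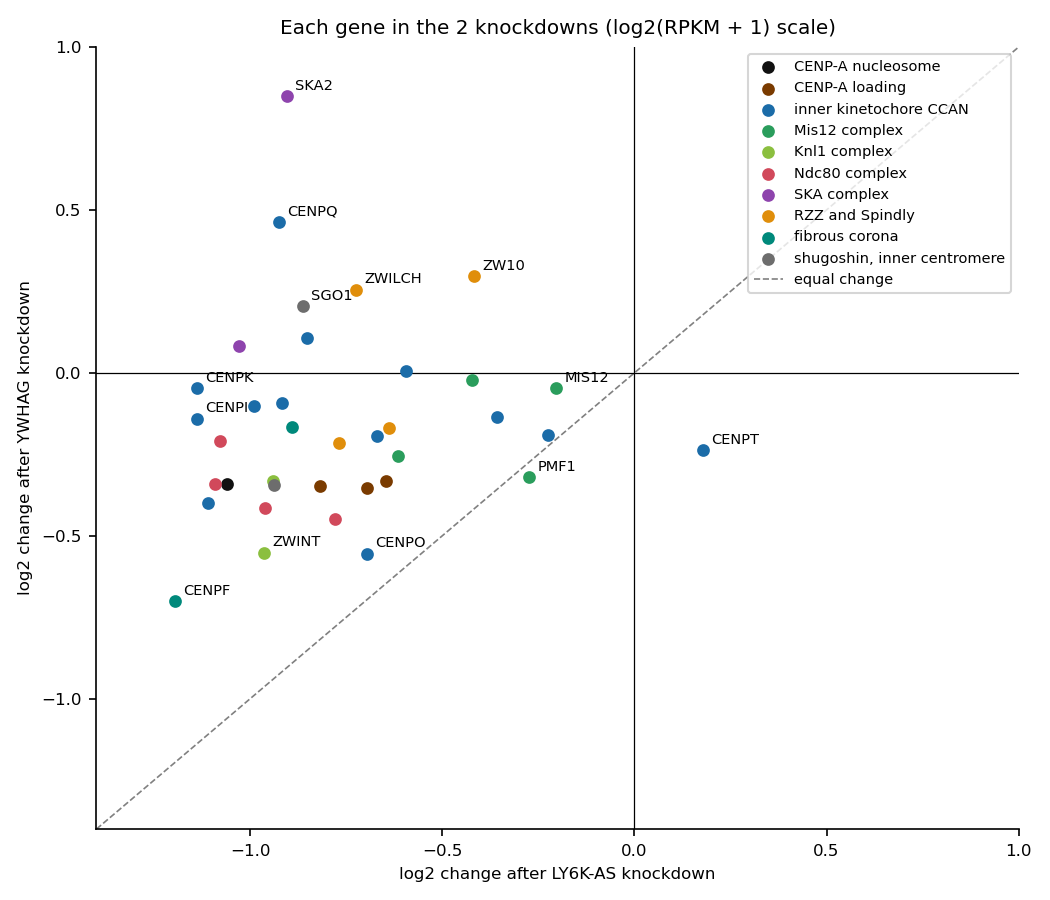
Log2 change of each gene after LY6K-AS knockdown (horizontal) and after YWHAG knockdown (vertical), each against its own controls on the log2(RPKM + 1) scale, coloured by subcomplex, with the dashed line marking equal change. Of 37 genes, 35 lie above the dashed line, and SKA2 is farthest from it.

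Members with and without the CHR word seen in the promoters printed above overlapped widely in their changes. The 16 tested members with a CHR word had a median change of −0.94 after LY6K-AS knockdown and the 15 without one −0.78, as a description with no test. After YWHAG knockdown the medians were −0.21 for the 17 members with the word and −0.14 for the 15 without. CENPI, without a CHR word, a CCAAT box or an E2F word in its window, was among the lowest after LY6K-AS knockdown at −1.14, and CENPT also had none of the 3. SKA2 held 5 CCAAT boxes and no CHR word.

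Genes listed beside these as other centromere and kinetochore components, such as checkpoint kinases and the chromosomal passenger complex, were mostly lower as well. Of these 28 genes 27 were lower after LY6K-AS knockdown, with a median of −0.81, 25 lay below both controls (30.5% of all genes did), and limma placed 19 lower and 0 higher at an unadjusted p under 0.05 (11.7% and 13.6% of all genes), but none passed the adjusted test. The 3 with the smallest p were KIF2C, a microtubule depolymerase, at 8.23 and 7.12 RPKM in LY6K-AS knockdown libraries against 16.5 and 16.0 RPKM in scramble LNA libraries, then CKAP5 (−0.63 ± 0.08) and CDCA8 (−1.11 ± 0.16), each with a limma adjusted p = 0.103. The 1 gene not lower was CENPB, named after its values were seen, which binds a motif in alpha satellite DNA and had 124 and 126 RPKM against 109 and 121 RPKM. After YWHAG knockdown 25 of the 28 were lower (57.6% of all genes were), with a median of −0.29, and 18 lay below both controls (30.8%). limma placed 6 lower and 0 higher at an unadjusted p under 0.05 (8.90% and 7.51% of all genes). KIF2C again had the smallest p, at 11.9 and 11.8 RPKM in YWHAG knockdown libraries and 17.6 and 16.1 RPKM in scramble siRNA libraries (−0.47 ± 0.13, limma adjusted p = 0.248). MAD2L1BP, which silences the checkpoint, was also among those with small p (−0.44 ± 0.13, limma adjusted p = 0.259).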

How the data were processed

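The authors deposited RPKM values in 2 separately normalized tables, 1 for the LNA and 1 for the siRNA libraries. Per the submitters' processing notes, the tools were STAR, featureCounts, Subread and Picard and the build hg38, without versions. Identifiers matched GENCODE 29 for 57055 of 66206 rows, 52238 with the same version, among them all 38 members. The 9151 unmatched rows were left out of LNA tests, as no length was at hand, and kept in siRNA tests. Values times gene length were whole multiples of 1 step per library, within 0.05 reads, for 100% of values: with genomic length minus 1 base in the LNA table (34.8 to 35.8% with merged exon length) and, in the siRNA table, with merged exon length (46.0 to 46.3% with genomic length). Implied totals were 26.2 to 34.6 M reads, so 3 reads came to 0.0868 to 0.115 RPM. LNA values were rescaled to merged exon length.

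Tests were limma 3.58.1 (R 4.3.3) on log2(RPKM + 1), each knockdown against its own 2 controls. Adjustment was Benjamini-Hochberg over all genes of a table with at least 0.5 RPKM in at least 2 libraries. The difference of effects came from 1 joint fit of all 8 libraries. The 2 knockdown tests were also run on simulated counts. That simulation gave all genes the same dispersion, so it cannot show how the test performs on these libraries. Columns of the siRNA controls carry the numbers 2 and 3 where the labels have 1 and 2; they were used by group only and keep the column numbers. Numbers did not pair the LNA samples (the check is in the closing section). Members and lists were chosen with earlier results of these data known. Genes named were, per subcomplex, those with the smallest p in each comparison, all members of subcomplexes of 4 or fewer, the 5 lowest and 3 highest changes, and up to 3 other kinetochore genes per comparison, of which 1 is not reported here. Promoters were RefSeq windows; 6 members had no window.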

Additional observations from a re-analysis of the deposited data

Results flagged for a closer look

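In 3 members both libraries of each knockdown lay beyond both of their controls, on opposite sides in the 2 knockdowns. SKA2 lay below both controls in both LY6K-AS knockdown libraries and above both in both YWHAG knockdown libraries, with a difference of effects of −1.75. ZW10 did the same, with a difference of −0.71. CENPT lay above both scramble LNA libraries after LY6K-AS knockdown and below both scramble siRNA libraries after YWHAG knockdown, with a difference of 0.42, though its LY6K-AS value was −0.039 with the GC trend removed. limma's test of the difference itself did not pass in any of the 3 (adjusted p = 0.0578 for SKA2, 0.109 for ZW10 and 0.239 for CENPT).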

How the results depend on the processing

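Over the alternatives to the LY6K-AS comparison 530 of 544 member values were lower, and the members' median ran from −1.03 to −0.65 without single libraries. Some alternatives, such as the replicate block and the pooled spread, cannot change a gene's fitted value, so their values repeat those of the main fit. On the values as deposited, where 28 members passed the filter, the members' median was −0.399, and with limma voom on recovered reads it was −1.025. In the 2 knockdown comparisons, only fits that pooled the spread over all 8 libraries or left out a knockdown library called members. The pooled fits tested 12861 genes. They called 4 members (OIP5, CENPI, SPC25 and CENPF, limma adjusted p = 0.0451) and 64 genes after LY6K-AS knockdown. After YWHAG knockdown they called 0 members and 214 genes. Without single libraries the LY6K-AS calls ran from 0 to 7853 genes and 0 to 36 members, and the YWHAG calls from 0 to 718 genes and 0 to 5 members. Members lower at an unadjusted p under 0.05 after YWHAG knockdown were 1 with TMM factors, 1 with limma voom on recovered reads, 3 with the GC trend removed, and 0 to 15 without single libraries, where 21 to 31 lay below both controls. For the difference of effects, genes called were 5 with no filter, 61 with a filter of 1 RPKM, 5 with totals without mitochondrial genes, 49 with TMM factors, 70 with voom, 43 as deposited and 0 to 1201 without single libraries. Members called there were 1 with voom (SKA2, −1.98, limma adjusted p = 0.0417) and 0 to 12 without single libraries, and members below 0 at an unadjusted p under 0.05 were 5 as deposited and 11 to 25 without single libraries. In the YWHAG fits without single libraries, 37.7 to 49.4% of all genes lay below the controls that were kept. Without scramble siRNA library 2 that was 23 members and 37.7% of all genes. Without scramble siRNA library 3 it was 21 members and 39.9% of all genes. For TMM factors, voom, GC trend removal and the deposited values, no share of all genes goes with the counts at an unadjusted p. The same holds for the difference of effects without single libraries. These member counts alone thus cannot show whether members moved apart from other genes. The causes were not tested.

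Signs reversed for CENPT after LY6K-AS knockdown with the GC trend removed (−0.039). After YWHAG knockdown they reversed with TMM factors for CENPK (0.007), MIS12 (0.009) and NSL1 (0.034), with voom for CENPK (0.005), MIS12 (0.010) and NSL1 (0.033), with the GC trend removed for MIS12 (0.010) and SKA1 (0.007), and with totals without mitochondrial genes for CENPL (−0.001). Without single libraries the YWHAG values ran from −0.223 to 0.131 (CENPK), −0.009 to 0.022 (CENPL), −0.095 to 0.312 (CENPM), −0.235 to 0.048 (CENPN), −0.831 to 0.035 (CENPU), −0.540 to 0.337 (CENPW), −0.699 to 0.187 (DSN1), −0.293 to 0.253 (NSL1), −0.049 to 0.460 (SGO1), −0.312 to 0.202 (SKA1), −0.125 to 0.288 (SKA3), −1.004 to 0.107 (SPC24) and −0.117 to 0.629 (ZWILCH). The difference of effects reversed for PMF1 with TMM factors (−0.048) and voom (−0.032), and as deposited for OIP5 (0.094), CENPO (0.067), CENPU (0.026) and SPC24 (0.050). The deposited LNA values are divided by genomic length and so are lower. Adding 1 therefore shrinks their log2 changes more than those of the siRNA values. Without single libraries it ran from −0.148 to 0.078 (CENPC), −0.555 to 0.274 (CENPO), −0.802 to 0.084 (DSN1), −0.098 to 0.189 (PMF1) and −0.886 to 0.224 (SPC24).

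With the replicate block among the LNA libraries, 0 of 14662 genes passed and 32 members were lower at an unadjusted p under 0.05, as without it. The median of −0.85 could not move, as each block held 1 knockdown and 1 control library. The deviations of same-numbered LNA libraries had a correlation of 0.0797, so the numbers were not taken to pair them. No paired fit was made for the siRNA table, whose control columns do not carry the labels' numbers. SKA1, with 18 to 45 reads per LNA library, was the member with the fewest reads and stayed under the filter there.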

Other observations

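NUDC, a dynein-associated gene of the wider kinetochore list chosen after its values were seen, had 50.5 and 7.40 RPKM in LY6K-AS knockdown libraries 1 and 2, against 58.7 and 58.9 RPKM in the scramble LNA libraries. On the log2(RPKM + 1) scale that was −0.21 in library 1 and −2.83 in library 2 (limma adjusted p = 0.345). In the YWHAG knockdown libraries NUDC had 41.8 and 52.8 RPKM, against 58.6 and 58.5 RPKM in the scramble siRNA libraries.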
